A study of Sus scrofa with 12 samples.

Results

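VWF, ESAM, CAV1 and MMRN2, 4 genes used as markers of vascular endothelium, were described across left ventricular muscle of paced and control pigs. The 4 genes were chosen with earlier results of these data known. All probe sets annotated with 1 of their symbols were then taken, whatever their values, which gave 5 probe sets among the 27558 of the array. The array held 12361 named genes in all. VWF was measured by probe set 15289731, ESAM by 15330843 and CAV1 by 15252845, and MMRN2 by 15233031 and 15227136. The second MMRN2 probe set, 15227136, is annotated with a gene ID for which the RefSeq table of the Sscrofa11.1 assembly holds no gene, while the other 4 IDs matched genes of the same symbols, so its values are given apart from the 4 genes. All 5 probe sets passed the filter on dim signal and were tested.

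Endothelial cells line the inside of every vessel, and in heart muscle most of them belong to the dense capillary bed between the muscle fibres. VWF encodes von Willebrand factor, a multimeric protein that endothelial cells store in Weibel-Palade bodies and release to catch platelets at a vessel injury, and megakaryocytes make it too. ESAM is an adhesion molecule of the junctions between endothelial cells and is also found on platelets. CAV1 encodes caveolin-1, the coat protein of caveolae, which are small pits of the cell membrane that are abundant in endothelium and are also present in smooth muscle cells, fibroblasts and fat cells. MMRN2 encodes multimerin-2, an extracellular matrix glycoprotein of the EMILIN family that endothelial cells deposit and that binds the endothelial lectins CLEC14A and CD93.

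The pigs were females aged 13 months, of which 6 were paced and 6 were sham controls. In paced pigs the atrioventricular node was ablated and a pacemaker was implanted in VDD mode, in which the ventricle is paced after each sensed atrial beat. The treatment protocol places leads on the right ventricular septum and the right atrial appendage of all pigs, and the labels do not settle whether this covers the sham controls. Tissue was taken after 6 months, at the level of the papillary muscles, and gave 3 arrays each for paced septum, control septum, paced free wall and control free wall. The labels do not tie an array to an animal, so p-values reflect spread among arrays that may be partly technical. Signals are RMA values on the log2 scale, on which 1 unit is a doubling, and a level of one probe set cannot be set against that of another.

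Array 2 of the paced free wall lay far from the others, at -45.3 on the first principal component against -19.2 to 22.3, and values of the 4 genes and of the gene lists that use it are also given without it. Both control arrays numbered 1 stood apart on the second component, at 24.3 in septum and 27.2 in free wall against -16.3 to 7.74. The 7 cardiomyocyte markers tested had mean signals between 11.32 and 12.52, and their mean per array lay between -0.04 and 0.03 around its average. These markers sat at or above percentile 99.8 of all probe sets, where array signals can be compressed, so a steady mean there says little about the amount of muscle RNA. In bulk tissue, fewer endothelial cells and less RNA per endothelial cell cannot be told apart.

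VWF read 6.60, 6.09 and 6.22 in paced septum, 5.85, 6.09 and 6.00 in control septum, 6.08, 5.85 and 5.96 in paced free wall, and 5.62, 5.91 and 5.88 in control free wall. Paced septum held the 2 highest of the 12 values, and control array 1 of the free wall the lowest. The means were 6.30 ± 0.27 in paced septum and 5.98 ± 0.12 in control septum (SD, n = 3 each). In free wall they were 5.96 ± 0.12 in paced pigs, or 6.02 without array 2 (n = 2), and 5.80 ± 0.16 in control pigs. Control septum and paced free wall, next to each other in this order, were 0.02 apart, which is less than the SD of either.

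ESAM, the junction molecule, read 6.37, 5.76 and 6.11 in paced septum and 5.73, 5.84 and 6.01 in control septum. In free wall it read 5.63, 5.36 and 5.97 in paced pigs and 5.42, 5.70 and 5.85 in control pigs. The groups overlapped in both regions, since paced septum array 2 lay below 2 of the 3 control septum arrays. The mean was 6.08 ± 0.31 in paced septum against 5.86 ± 0.14 in control septum (SD, n = 3 each), and 5.65 ± 0.31 in paced free wall against 5.66 ± 0.22 in control free wall. Paced free wall array 2 was the lowest of all 12, and without it the paced free wall mean was 5.80 (n = 2), above that of control free wall.

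CAV1, the caveolar coat protein, read 9.68, 9.53 and 9.64 in paced septum and 9.20, 9.42 and 9.37 in control septum, so that every paced array lay above every control array there. In free wall it read 9.41, 8.85 and 9.44 in paced pigs and 9.03, 9.57 and 9.41 in control pigs. Both free wall groups thus held 2 arrays at 9.41 or above and 1 low array, which was array 2 in paced pigs and array 1 in control pigs. The means were 9.62 ± 0.08 in paced septum and 9.33 ± 0.12 in control septum, and 9.23 ± 0.33 in paced free wall and 9.34 ± 0.28 in control free wall (SD, n = 3 each). Without array 2 the paced free wall mean was 9.42 (n = 2). The 3 groups below paced septum differed by at most 0.10, less than the SD of either free wall group.

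MMRN2 read 5.94, 6.30 and 5.92 in paced septum, 5.15, 6.01 and 6.13 in control septum, 6.20, 5.36 and 5.54 in paced free wall and 5.02, 6.06 and 5.51 in control free wall. It was the most scattered of the 4 genes, and every pair of groups overlapped. The mean was 6.05 ± 0.21 in paced septum against 5.76 ± 0.54 in control septum, and 5.70 ± 0.44 in paced free wall against 5.53 ± 0.52 in control free wall (SD, n = 3 each). Without array 2 the paced free wall mean was 5.87 (n = 2). Both control arrays numbered 1 were low, at 5.15 in septum and 5.02 in free wall.

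Paced septum thus had the highest mean of the 4 groups for all 4 genes, and the order of the other 3 groups differed between genes. Paced septum array 1 was the highest of the 12 arrays for 3 of the genes, and paced septum array 2 for MMRN2. At the other end, free wall control array 1 was the lowest for VWF and MMRN2 and among the 2 lowest for all 4 genes. Free wall paced array 2 was the lowest for ESAM and CAV1.

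**Figure D1:**
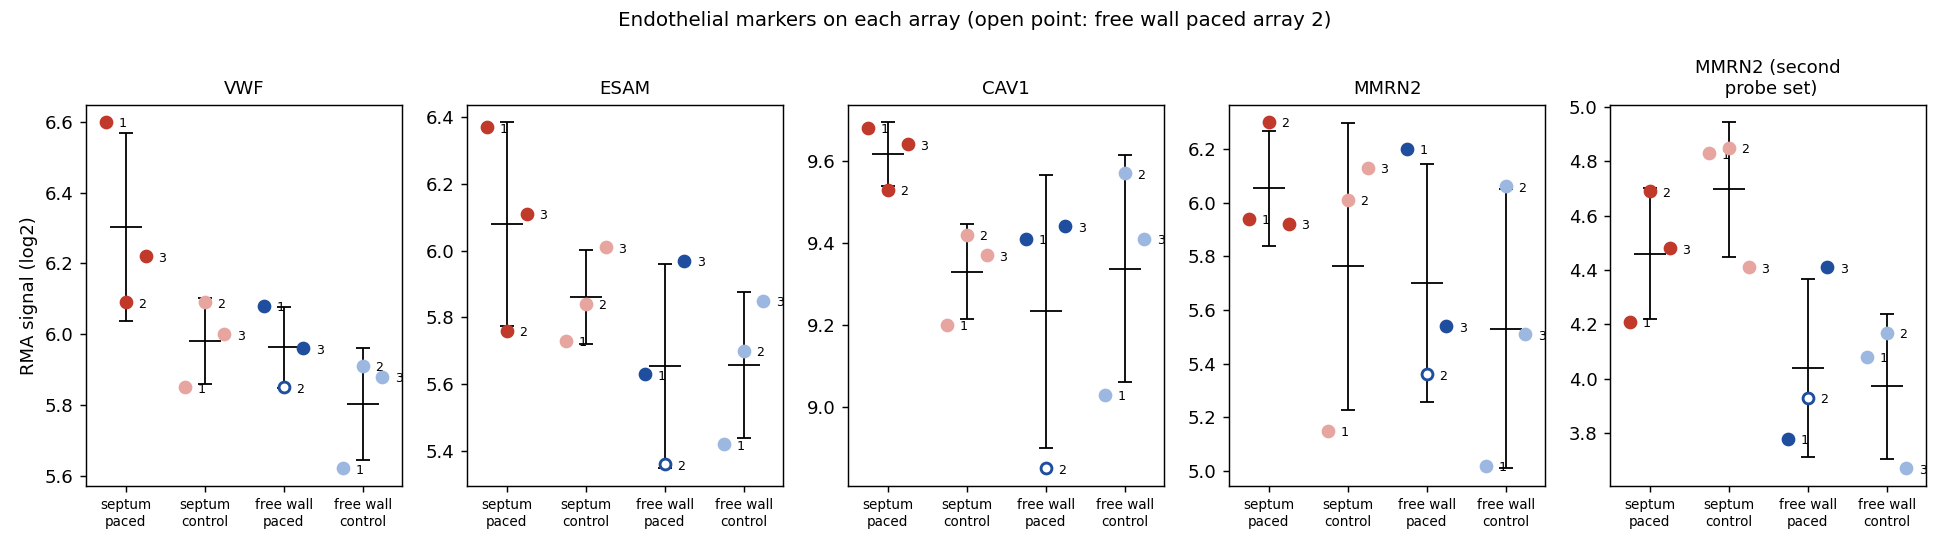
RMA signal (log2, vertical axis) of each probe set on each of the 12 arrays, with the array number beside each point. Horizontal bars are group means and whiskers the SD (n = 3 per group), and the open point is free wall paced array 2. Paced septum has the highest mean for the 4 genes, while for the second MMRN2 probe set control septum does (4.70).

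The first question was how paced septum, the wall that carries the lead, differed from the free wall of paced pigs. All 4 genes had a higher mean in paced septum, by 1.27 to 1.34-fold, where 51.4% of all probe sets did, and none passed the test over all 20669 probe sets (limma, Benjamini-Hochberg adjusted p under 0.05). That call was made for 0% of the probe sets tested in this comparison. VWF was 0.34 higher on the log2 scale (SE 0.15, 95% interval 0.02 to 0.66, unadjusted p = 0.0398, adjusted p = 0.725 by limma). Its lowest paced septum value, 6.09, lay just above its highest paced free wall value, 6.08. ESAM was 0.43 higher (SE 0.19, interval 0.01 to 0.85, adjusted p = 0.738 by limma), with overlapping groups.

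CAV1 was 0.38 higher in paced septum than in paced free wall (SE 0.18, interval -0.002 to 0.77, unadjusted p = 0.0511 and adjusted p = 0.742 by limma), with groups that did not overlap. MMRN2 was 0.35 higher (SE 0.31, interval -0.33 to 1.04). VWF and ESAM were the 2 of 4 genes that were higher at an unadjusted p under 0.05, where 4.3% of all probe sets were. VWF and CAV1 were the 2 whose paced septum arrays all lay above the paced free wall arrays, as did those of 6.44% of all probe sets.

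Free wall paced array 2 carried much of the regional difference in paced pigs. Without it the difference was 0.28 for VWF (adjusted p = 0.571 by limma), 0.28 for ESAM (0.635), 0.19 for CAV1 (0.681) and 0.18 for MMRN2 (0.884). All 4 stayed above 0, at an average over the genes of 0.24 without that array against 0.38 with it. The groups of VWF and CAV1 did not overlap without it either, where 14.3% of all probe sets had higher values in septum that did not overlap. Without paced septum array 1, the highest for VWF, the VWF difference was 0.19.

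In control pigs the septum had a higher mean than the free wall for 3 of the 4 genes, where 52.3% of all probe sets did, and no gene passed (0% of all probe sets were called). At an unadjusted p under 0.05 there were 0 of 4 genes, against 3.67% of all probe sets. The differences were 0.18 for VWF (SE 0.15), 0.20 for ESAM (SE 0.19), 0.23 for MMRN2 (SE 0.31) and -0.01 for CAV1 (SE 0.18), each with a limma adjusted p of 0.997. Without free wall control array 1, VWF and ESAM both stood at 0.085 and MMRN2 at -0.02. The 2 groups overlapped for all 4 genes, where 13.1% of all probe sets did not overlap. The 95% intervals reached from -0.145 to 0.50 for VWF and from -0.39 to 0.38 for CAV1. Their upper limits stand beside differences of 0.34 for VWF and 0.38 for CAV1 in paced pigs.

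Arrays of the same number and treatment, which the labels do not say come from one animal, gave another view of the regions. Septum minus free wall was positive for VWF at all 6 numbers, at 0.52, 0.24 and 0.26 in paced pigs and 0.23, 0.18 and 0.12 in control pigs. ESAM was positive at all 6 as well, at 0.74, 0.40 and 0.14 in paced pigs and 0.31, 0.14 and 0.16 in control pigs. CAV1 was positive at the 3 paced numbers, at 0.27, 0.68 and 0.20, while in control pigs it read 0.17, -0.15 and -0.04. MMRN2 was mixed, at -0.26, 0.94 and 0.38 in paced pigs and 0.13, -0.05 and 0.62 in control pigs. The largest paced values of CAV1 and MMRN2 belong to number 2, whose free wall array is the one that stood apart.

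The second question was how pacing related to these genes in each region. In septum, all 4 genes had a higher mean in paced than in control pigs, by 1.16 to 1.25-fold, where 49.1% of all probe sets did, and none passed, where 0.00968% of all probe sets were called. VWF was 0.32 higher (SE 0.15, interval 0.002 to 0.645, unadjusted p = 0.0488, adjusted p = 0.992 by limma). It was the 1 gene of 4 that was higher at an unadjusted p under 0.05, against 2.33% of all probe sets. CAV1 was 0.29 higher (SE 0.18, interval -0.10 to 0.67), and it was the 1 gene of 4 whose paced arrays all lay above its control arrays, against 5.76% of all probe sets. ESAM was 0.22 higher (SE 0.19) and MMRN2 0.29 (SE 0.31), both with an adjusted p of 0.992 by limma.

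Single arrays moved these septal differences. Without paced septum array 1 VWF was 0.175 higher and ESAM 0.075 higher, against 0.32 and 0.22 with it. Without control septum array 1 MMRN2 was -0.02, so the sign of its difference rested on that array. CAV1 lay between 0.22 and 0.33 whichever array was left out.

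In the free wall 2 of the 4 genes had a higher mean in paced pigs, where 49.9% of all probe sets did. None passed, where 0.00484% of all probe sets were called, and 0 of 4 had an unadjusted p under 0.05, against 4.56% of all probe sets. VWF was 0.16 higher in paced than in control pigs (SE 0.15, interval -0.16 to 0.48) and MMRN2 0.17 higher (SE 0.31), while ESAM stood at -0.003 (SE 0.19) and CAV1 at -0.10 (SE 0.18). Each had a limma adjusted p of 0.998, and all groups overlapped, where 8.16% of all probe sets did not. Without paced array 2, the differences were 0.22 for VWF, 0.14 for ESAM, 0.09 for CAV1 and 0.34 for MMRN2, so that all 4 lay above 0, where 47.5% of all probe sets did in that setting. The paced arrays of VWF then all lay above its control arrays, as did those of 11.9% of all probe sets. Without both control arrays numbered 1, only 1 of the 4 genes lay above 0, where 49.5% of all probe sets did.

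**Figure D2:**
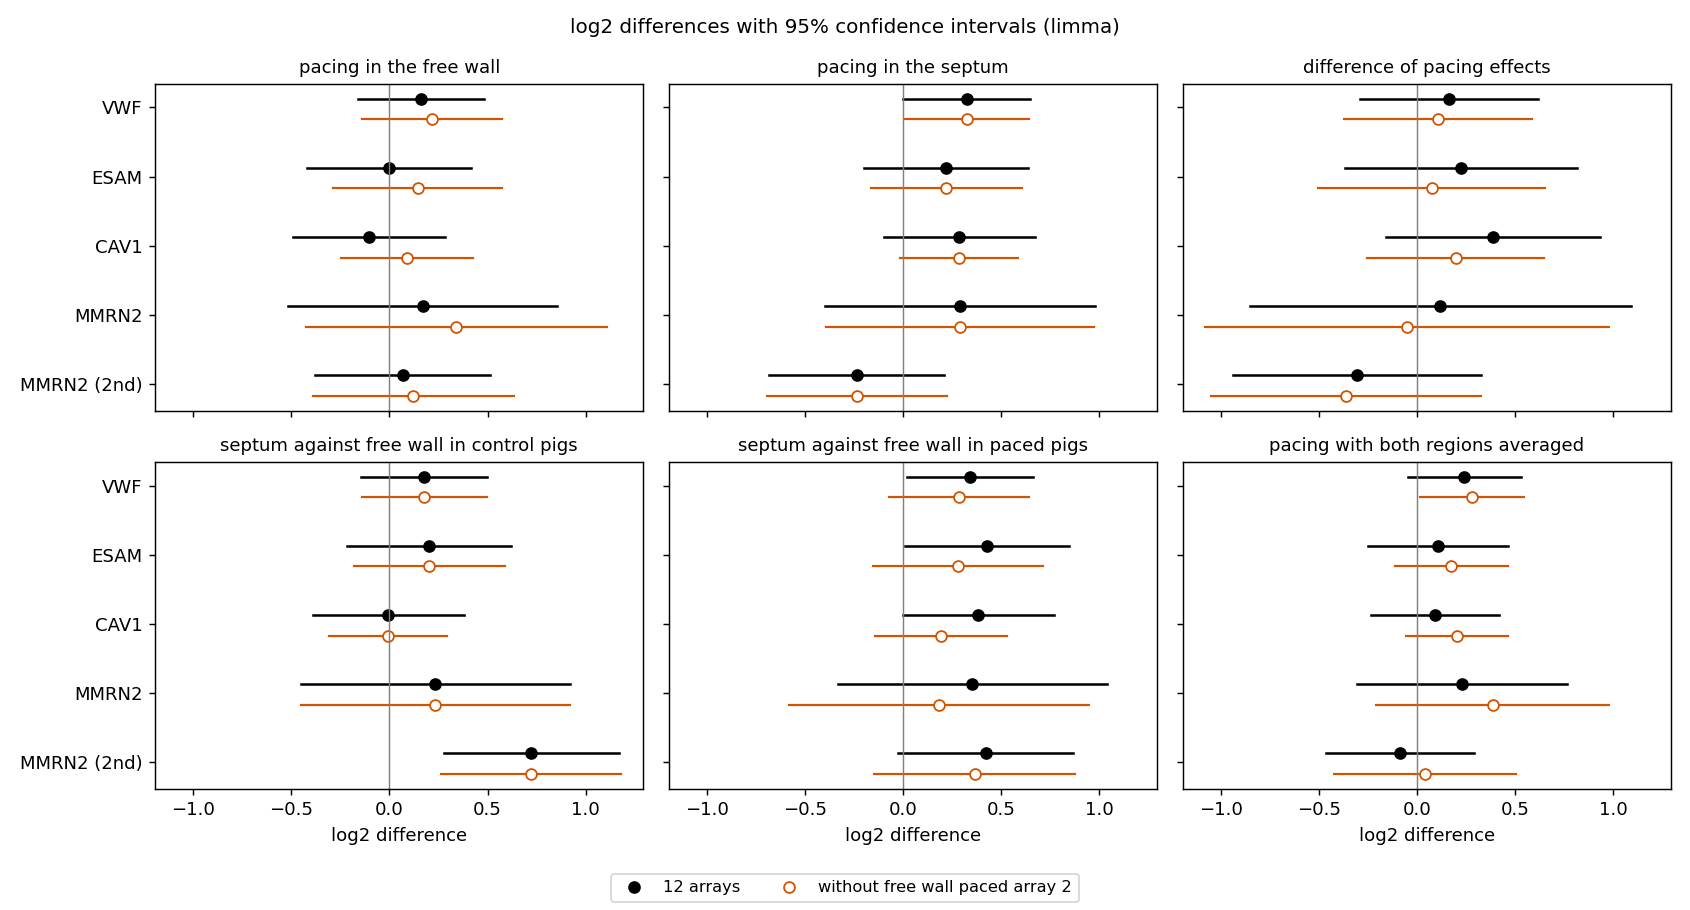
log2 differences (horizontal axis) of the 5 probe sets in 6 comparisons, with 95% confidence intervals from limma. Filled points use all 12 arrays and open points leave out free wall paced array 2. In paced pigs the intervals of septum against free wall for VWF and ESAM lie just above 0 with all arrays (0.02 to 0.66 and 0.01 to 0.85) and cross 0 without array 2.

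The pacing effect in septum minus that in free wall was above 0 for all 4 genes, where it was for 51.3% of all probe sets. It stood at 0.16 for VWF (SE 0.21), 0.22 for ESAM (SE 0.27), 0.39 for CAV1 (SE 0.25) and 0.12 for MMRN2 (SE 0.44). None passed (adjusted p = 0.999 for each by limma, with 0% of all probe sets called), and 0 of 4 had an unadjusted p under 0.05, against 2.75% of all probe sets. The widest interval was that of MMRN2, from -0.85 to 1.09. Without free wall paced array 2 the differences were 0.11, 0.08, 0.20 and -0.05 in the same order of genes. A difference between the regions in the response of these genes was therefore not detectable with these arrays, and these intervals leave room for effects in either direction.

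With both regional arrays of each number averaged, VWF read 6.34, 5.97 and 6.09 in paced pigs against 5.74, 6.00 and 5.94 in control pigs. It was 0.24 higher in paced pigs (SE 0.12, interval -0.05 to 0.53, adjusted p = 0.926 by limma), where 0.00484% of all probe sets were called. ESAM was 0.11 higher (SE 0.15), CAV1 0.09 (SE 0.14) and MMRN2 0.23 (SE 0.23), with adjusted p-values of 0.990 to 0.993. All 4 lay above 0, where 48.9% of all probe sets did, and 0 of 4 had an unadjusted p under 0.05, against 5.55% of all probe sets. Without free wall paced array 2, where number 2 rests on its septum array, VWF was 0.28 higher (unadjusted p = 0.0388, adjusted p = 0.61 by limma) and CAV1 0.20 higher. Without both control arrays numbered 1, CAV1 stood at -0.02 and MMRN2 at -0.05. These comparisons share arrays, so their values are not independent of each other.

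The second MMRN2 probe set followed the first only in part, in the direction between regions but not with pacing in septum. It read 4.21, 4.69 and 4.48 in paced septum, 4.83, 4.85 and 4.41 in control septum, 3.78, 3.93 and 4.41 in paced free wall and 4.08, 4.17 and 3.67 in control free wall. In control pigs every septum array lay above every free wall array, as it did for 7.33% of all probe sets, and higher values at an unadjusted p under 0.05 were found for 2.12%. The difference was 0.72 (1.65-fold, SE 0.20, interval 0.28 to 1.17, unadjusted p = 0.0042, adjusted p = 0.997 by limma) and did not pass. In paced pigs the septum was 0.42 higher (SE 0.20, adjusted p = 0.754 by limma) with overlapping groups, or 0.365 without free wall paced array 2. Same-numbered septum arrays exceeded the free wall ones by 0.75, 0.68 and 0.74 in control pigs and by 0.43, 0.76 and 0.07 in paced pigs. Its difference with pacing was -0.24 in septum (SE 0.20) and 0.07 in free wall (SE 0.20), or 0.12 without free wall paced array 2. Over the 12 arrays its correlation with the first MMRN2 probe set was 0.139, and 0.057 without that array.

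VWF, ESAM and CAV1 moved together from array to array, and MMRN2 followed less closely, least of all with ESAM. Pearson's r over the 12 arrays was 0.814 for VWF with ESAM, 0.803 for ESAM with CAV1, 0.727 for VWF with CAV1 and 0.704 for CAV1 with MMRN2. It was 0.608 for VWF with MMRN2 and 0.422 for ESAM with MMRN2. Without free wall paced array 2 the same pairs gave 0.838, 0.727, 0.814, 0.719, 0.585 and 0.331. By Spearman's rank correlation over the 12 arrays MMRN2 gave 0.67 with VWF, 0.494 with CAV1 and 0.224 with ESAM. The pairs among VWF, ESAM and CAV1 gave 0.655 to 0.801. The points share whole arrays and their differences in tissue and RNA, so these values are a description and carry no p.

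The mean of the 4 genes, each centred on its own average, put numbers on this order of arrays. It was 0.41, 0.18 and 0.23 in paced septum, -0.26, 0.10 and 0.14 in control septum, 0.09, -0.39 and -0.01 in paced free wall and -0.47, 0.07 and -0.08 in control free wall. All 3 paced septum arrays lay above the other 9 arrays. The 4 genes were chosen with earlier results of these data known, so this order is a description and not a test. The 3 lowest were both control arrays numbered 1 and free wall paced array 2, the same arrays that stood apart over all probe sets.

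Among 9497 other named genes tested, the genes most like each member over the 12 arrays were listed by Pearson's r. For CAV1 they were CA4, a carbonic anhydrase of capillary endothelium (0.956), CLEC14A, an endothelial lectin (0.948), and DOCK9, an activator of the GTPase CDC42 (0.937). For ESAM they were MAPK1IP1L (0.966), the nuclear pore gene NUP214 (0.949) and PODXL, a sialomucin of endothelium and podocytes (0.947). For VWF they were PRRC2A (0.915), the glycan-branching enzyme MGAT4B (0.91) and TIMP3, an inhibitor of metalloproteinases (0.902). For MMRN2 they were the ubiquitin-like gene UBD (0.876), CDK2AP1 (0.872) and the disulfide isomerase PDIA6 (0.867).

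The mean of the 4 genes was most like FAM171A1 (0.949), the VEGF co-receptor NRP1 (0.939), CLEC14A (0.925), GATC (0.923) and DIEXF (0.92). Without free wall paced array 2, CLEC14A and NRP1 were still among the first 5, at 0.933 and 0.926, and ABCF1 (0.952) and ACTB (0.948) came first. ABCF1 had an r of 0.552 with that array. Without it FOS led for VWF (0.918), MAPK1IP1L for ESAM (0.954), DIEXF for CAV1 (0.944) and ANK2 for MMRN2 (0.928).

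Not all endothelial genes followed the 4. CAV2, the partner of caveolin-1 in caveolae, had an r of 0.922 with CAV1, and TEK, the angiopoietin receptor, one of 0.745 with the mean of the 4. PECAM1, a junction molecule, had an r of 0.553 with that mean. CD93, which like CLEC14A binds multimerin-2, had an r of -0.332, and NOS3, the endothelial nitric oxide synthase, one of -0.639. Leaving out free wall paced array 2, these were 0.905 for CAV2 with CAV1, and 0.705 for TEK, 0.333 for PECAM1, 0.101 for CD93 and -0.552 for NOS3 with the mean. CD93 was dim, at 3.20 to 4.72 where the array medians ran from 4.305 to 4.45. Its highest value was on free wall paced array 2, so its r and its differences say little.

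Other endothelial genes were read from 11 lists that together held 112 genes, of which 78 were on the array and 75 were tested. A list of endocardial and lymphatic endothelial markers, with 4 genes tested, was kept apart from these. In paced pigs 51 of the 75 (68%) had a higher mean in septum than in free wall, against 51.4% of all probe sets, with a median difference of 0.10 against 0.01. None of the 75 was called (0 by limma), and 5 (6.67%) were higher at an unadjusted p under 0.05, against 4.3% of all probe sets. Paced septum arrays all lay above the paced free wall arrays for 3 of the 75 and all below for 3. That was 8% without overlap, against 9.91% of all probe sets. The members' average of 0.38 was larger than the 0.11 of these 75 genes. The members were chosen with earlier results of these data known, so this contrast is a description and not a test. Without free wall paced array 2, 44 of 75 (58.7%) lay above 0, against 54.1% of all probe sets, and the average was 0.04. In control pigs the count was 36 of 75 (48%), against 52.3% of all probe sets, with a median of 0.00.

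**Figure D3:**
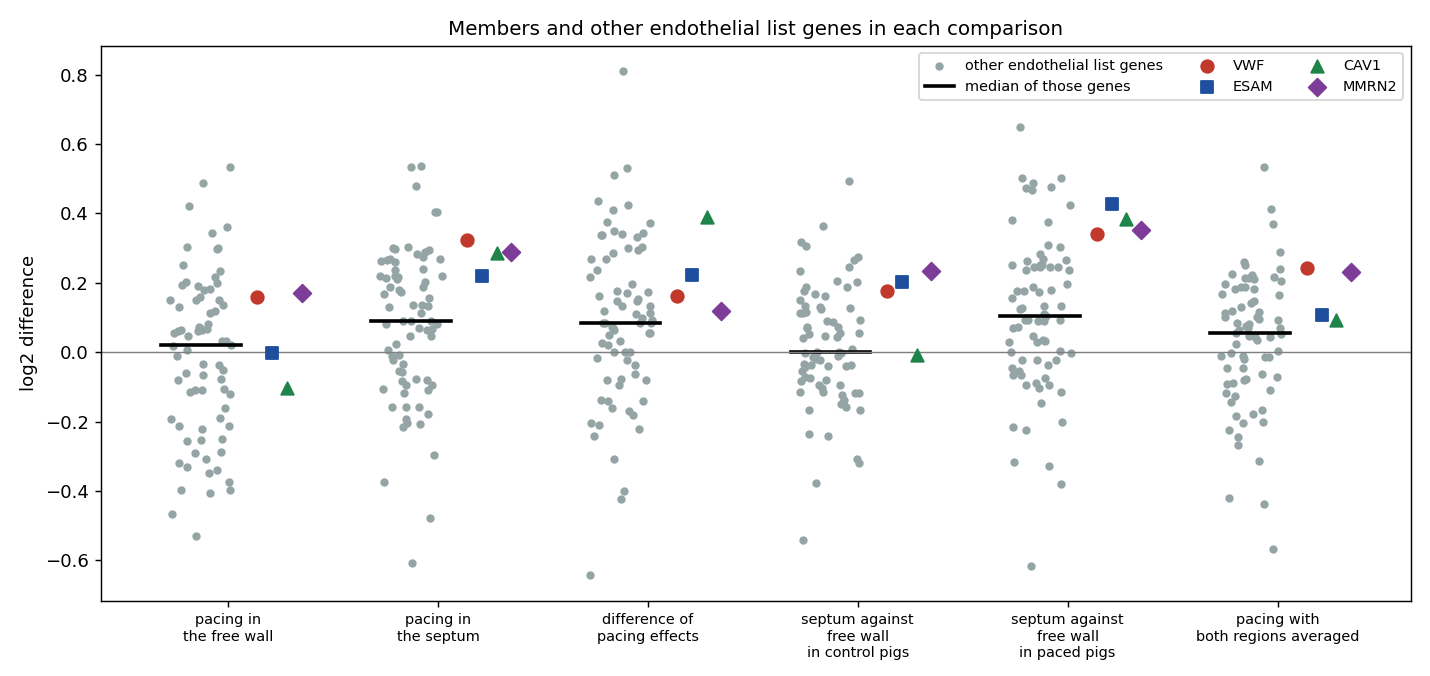
log2 difference (vertical axis) of the 4 genes and of the other 75 endothelial genes tested in each of 6 comparisons, with a bar at the median of the 75. In paced pigs, septum against free wall, the 4 genes lie at 0.34 to 0.43 and the median of the 75 at 0.10. The 4 genes were chosen with earlier results of these data known.

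Within the partners of VWF, 6 of 9 genes of Weibel-Palade bodies and haemostasis were above 0 in paced septum against paced free wall (median 0.09, 0 called). THBD, the thrombin receptor thrombomodulin, read 4.67, 4.51 and 4.40 in paced septum and 4.25, 4.04 and 4.02 in paced free wall. It was 0.42 higher (SE 0.15, unadjusted p = 0.0142, adjusted p = 0.614 by limma), with groups that did not overlap. SELP, the P-selectin stored beside von Willebrand factor, was 0.24 higher (SE 0.12), and RAB27A, a GTPase of these granules, stood at -0.20 (SE 0.20). SELP was dim, at 3.14, 3.37 and 3.33 in paced free wall, near the filter limit of 3, so its difference says little. With free wall paced array 2 left out, 3 of the 9 were above 0 (median -0.05), with THBD at 0.39, SELP at 0.28 and RAB27A at -0.32. Platelets also carry von Willebrand factor and ESAM. Of 6 platelet and megakaryocyte markers 3 were above 0, with a median of 0.07, and their means per array ran from -0.12 to 0.24 in paced septum and from -0.06 to -0.02 in paced free wall. Without free wall paced array 2, 5 of 6 were above 0 (median 0.085). PF4 and GP9 were not on the array and PPBP fell below the filter. The part of platelets in the VWF and ESAM values was not tested.

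Of the list of endothelial junctions and surface adhesion, which stands beside ESAM, 7 of 7 were above 0 in paced septum against paced free wall (median 0.19, 0 called). The junction molecule F11R stood at 0.31 (SE 0.22), MCAM at 0.25 (SE 0.22), claudin CLDN5 at 0.19 (SE 0.19) and PECAM1 at 0.16 (SE 0.20). PECAM1 read 6.88 on free wall paced array 2, and without that array 6 of 7 were above 0 (median 0.12), with F11R at 0.058, MCAM at 0.16, CLDN5 at 0.22 and PECAM1 at -0.12. MCAM stood at 0.023 without paced septum array 1. Of the genes that share caveolae with CAV1, 6 of 6 were above 0 (median 0.115, 0 called), with CAV2 at 0.25 (SE 0.18), EHD4, which sits at the neck of caveolae, at 0.25 (SE 0.22) and the membrane-bending protein PACSIN2 at 0.13 (SE 0.14). CAV2 read 8.05, 7.90 and 7.99 in paced septum and 7.81, 7.43 and 7.96 in paced free wall. Without array 2 of the paced free wall 5 of 6 were above 0 (median 0.08), with CAV2 at 0.095, EHD4 at 0.30 and PACSIN2 at 0.06.

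Of the EMILIN family and the binding partners of MMRN2, 3 of 6 were above 0 in the same comparison (median 0.01, 0 called). CLEC14A read 6.51, 6.29 and 6.31 in paced septum and 6.06, 5.47 and 6.18 in paced free wall. Its groups did not overlap, with a difference of 0.47 (SE 0.20, unadjusted p = 0.0394, adjusted p = 0.725 by limma). CD93 stood at -0.22 (SE 0.29), with free wall paced array 2 high at 4.72, and CD248, a related lectin of stromal cells, at -0.33 (SE 0.19). CD248 was dim as well, at 3.41 to 4.47, and its highest value was also on that array. Without that array 4 of 6 were above 0 (median 0.21), with CLEC14A at 0.25, CD93 at 0.20 and CD248 at -0.17.

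Among the other endothelial lists in paced pigs, 4 of 8 VEGF ligands and receptors were above 0 and 4 below (median -0.007). The ligand PGF stood at 0.47 (SE 0.21), the receptor FLT1 at 0.30 (SE 0.27) and NRP1 at 0.26 (SE 0.16). The ligand VEGFD stood at -0.32, with 5.59, 5.61 and 5.15 in paced septum and 5.69, 5.75 and 5.86 in paced free wall. The count was 3 of 8 without free wall paced array 2, with PGF at 0.595, FLT1 at -0.063 and NRP1 at 0.13, and without free wall paced array 1 PGF stood at 0.245. FOXO1, a transcription factor of endothelial quiescence that other cells also use, was 0.65 higher in septum (SE 0.18, unadjusted p = 0.00318, adjusted p = 0.478 by limma). FOXO1 was dim, at 4.24, 4.31 and 3.73 in paced septum and 3.17, 3.57 and 3.59 in paced free wall. The array medians ran from 4.305 to 4.45, so its difference is to be read with caution. SEMA3G, a semaphorin of arterial endothelium, was 0.48 higher (SE 0.14, unadjusted p = 0.00636, adjusted p = 0.561 by limma), and HEY1, a Notch target, 0.50 (SE 0.33). HEY1 stood at 0.13 without paced septum array 1. CA4 stood at 0.38 (SE 0.22), and at 0.175 without free wall paced array 2. Without that array FOXO1 stood at 0.71, SEMA3G at 0.43 and HEY1 at 0.43. Of their lists, 7 of 10 endothelial transcription factors were above 0 (median 0.13) and 6 of 9 arterial markers (median 0.03). Capillary markers, the list of CA4, were above 0 for 3 of 5 (median 0.28). Without free wall paced array 2 these counts were 5 of 10 (median -0.0025), 6 of 9 (median 0.09) and 2 of 5 (median -0.005). On the other side, VCAM1, an adhesion molecule of activated endothelium, stood at -0.62 (SE 0.36) and the transcription factor LYL1 at -0.22 (SE 0.13), or at -0.53 and -0.19 without free wall paced array 2. The groups did not overlap for VCAM1, LYL1 and VEGFD, all lower in septum, nor for FOXO1, which was higher. Of all probe sets, 3.47% were lower and 6.44% higher in septum without overlap. None of the genes named here passed. In control pigs, septum against free wall was on the same side for VCAM1 (-0.54), FOXO1 (0.31), PGF (0.36) and VEGFD (-0.24). It stood at 0.05 for SEMA3G, 0.05 for NRP1, -0.03 for FLT1, 0.00 for CA4, -0.31 for HEY1 and 0.18 for LYL1. The control groups of FOXO1 did not overlap either, where 7.33% of all probe sets were higher without overlap.

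With pacing in septum, 49 of the 75 endothelial genes (65.3%) were above 0, against 49.1% of all probe sets, with a median of 0.09 against 0.00 and 0 called. None of the 75 had an unadjusted p under 0.05 (0 of 75), against 4.66% of all probe sets. Of the 4 endocardial and lymphatic markers tested, 1 was higher and 1 lower at that limit. Paced septum arrays all lay above control septum arrays for 6 of the 75 and all below for 4. That was 13.3% without overlap, against 10.5% of all probe sets. Without both control arrays numbered 1, 42 of 75 (56%) lay above 0, against 49% of all probe sets, with a median of 0.04. Of the Weibel-Palade body list 8 of 9 were above 0 (median 0.14), with the dim SELP at 0.26 (SE 0.12), THBD at 0.26 (SE 0.15) and the plasminogen activator PLAT at 0.40 (SE 0.26). Capillary markers were above 0 for 5 of 5 (median 0.16), with the fatty acid transporter CD36 at 0.16 (SE 0.10) and CA4 at 0.27 (SE 0.22), and arterial markers for 8 of 9 (median 0.17), with the ligand EFNB2 at 0.27 (SE 0.14). Without control septum array 1 THBD stood at 0.17, without control septum array 3 PLAT stood at 0.23, and without paced septum array 1 CA4 stood at 0.14.

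The junction and caveolar lists were less one-sided with pacing in septum, at 4 of 7 (median 0.05) and 4 of 6 (median 0.05). ENG, a co-receptor of the TGF-beta family, stood at 0.24 (SE 0.25), PECAM1 at -0.09 (SE 0.20) and ICAM2 at -0.22 (SE 0.18). CAV2 stood at 0.27 (SE 0.18), PACSIN2 at -0.19 (SE 0.14) and CAVIN2, a coat protein of caveolae, at -0.12 (SE 0.14). CLEC14A was 0.29 higher (SE 0.20) with groups that did not overlap, while CD93 stood at -0.21 (SE 0.29). NRP1 was 0.30 higher (SE 0.16), CALCRL, the receptor of adrenomedullin, 0.54 (SE 0.32), and the ligands VEGFA and VEGFD stood at -0.30 (SE 0.20) and -0.48 (SE 0.29). All had a limma adjusted p of 0.992 or more. Without control septum array 1, CAV2 and CLEC14A both stood at 0.15, NRP1 at 0.20, VEGFA at -0.12 and VEGFD at -0.165. Without paced septum array 1 ENG stood at 0.028.

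With pacing in the free wall, 40 of the 75 (53.3%) were above 0, against 49.9% of all probe sets (median 0.02, 0 called). Without paced array 2 the count was 45 (60%), against 47.5% of all probe sets. Without both control arrays numbered 1 it was 27 (36%), against 49.5%. The side to which these genes leaned there thus rested on which arrays were used. Caveolar genes were above 0 for 2 of 6 (median -0.07), with PACSIN2 at -0.34 (SE 0.14, unadjusted p = 0.0312), CAVIN2 at -0.29 (SE 0.14) and CAV2 at -0.08 (SE 0.18). CLEC14A stood at -0.12 (SE 0.20), PECAM1 at -0.19 (SE 0.20), and the dim CD93 and CD248 at 0.22 (SE 0.29) and 0.49 (SE 0.19). Both dim genes read highest on paced array 2. Without paced array 2 the signs of 4 of these genes turned, with CAV2 at 0.072, CLEC14A at 0.097, PECAM1 at 0.085 and CD93 at -0.20. CD248 then stood at 0.325, PACSIN2 at -0.27 and CAVIN2 at -0.20, and 2 of 6 caveolar genes were above 0 (median -0.11). VEGFA, the main growth factor of endothelium, stood at -0.33 (SE 0.20), at -0.26 without paced array 2 and at -0.13 without control array 1. Each had a limma adjusted p of 0.998.

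Markers of other cell types moved on some of the same arrays. Capillary endothelial markers averaged -0.46 on free wall paced array 2, against 0.12 and 0.20 on the other paced free wall arrays. Macrophage markers averaged -0.36 on that array, where the other 2 read 0.01 and -0.20, and fibroblast markers read 0.04. On control arrays numbered 1 fibroblast markers averaged -0.69 in septum and -0.72 in free wall, against -0.31 to 0.32 on the other 10 arrays, and smooth muscle and pericyte markers averaged -0.31 and -0.23. CAV1 is also made by fibroblasts and smooth muscle cells. With pacing in septum 8 of 9 fibroblast markers (median 0.33) and 6 of 9 smooth muscle and pericyte markers (median 0.15) were above 0. Of all probe sets 49.1% were. In paced septum against paced free wall these counts were 3 of 9 (median -0.11) and 6 of 9 (median 0.06), against 51.4%. Without free wall paced array 2 they were 3 of 9 (median -0.27) and 6 of 9 (median 0.05), against 54.1%. The part of these cell types in the values of the 4 genes was not tested.

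**Figure D4:**
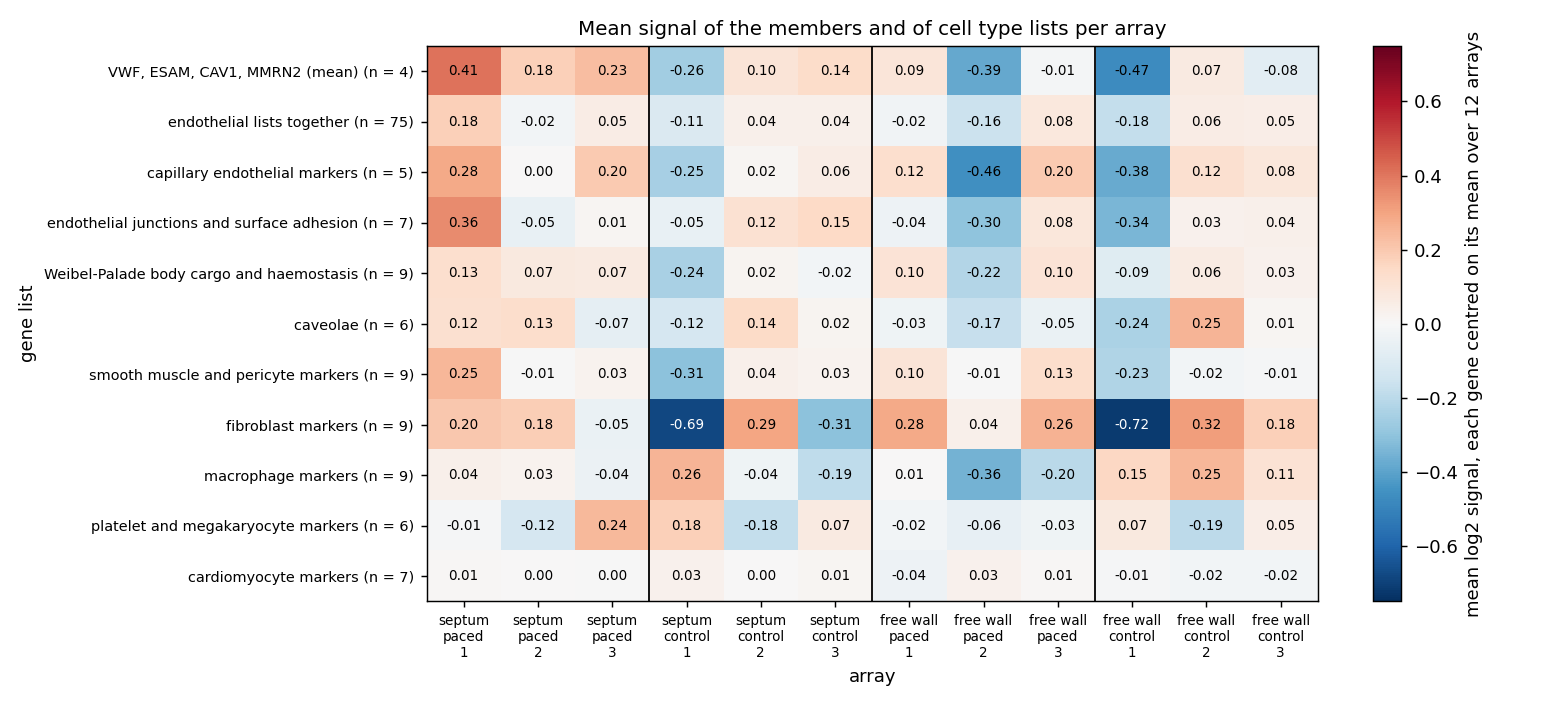
Mean log2 signal of the 4 genes and of 10 gene groups on each array (columns, by group and array number), each gene centred on its mean over the 12 arrays; red is above and blue below. Free wall paced array 2 and both control arrays numbered 1 are low for the 4 genes (-0.39, -0.26 and -0.47) and for capillary markers (-0.46, -0.25 and -0.38), and cardiomyocyte markers, near the top of the signal range, lie between -0.04 and 0.03.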

How the data were processed

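Total RNA was extracted with Trizol and labelled with biotin, per the labels' protocols. The deposited log2 values come from RMA (background correction, quantile normalisation, 1 summary per probe set), run by the authors in Affymetrix Expression Console 1.4, per the submitters' processing notes. The build of the array is not given in the sources used here. Genes were named from GEO's platform annotation, in which 13323 probe sets had 1 symbol, 357 several and 13878 none. The 25% of probe sets with the lowest mean were left out (mean log2 under 3) and 20669 were tested.

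For each probe set limma 3.58.1 (R 4.3.3) fitted 1 mean per group to all 12 arrays (8 residual and 3.68 prior degrees of freedom), with two-sided tests and Benjamini-Hochberg adjustment over all probe sets tested. Averaged regions were fitted on 6 values (4 residual and 3.82 prior degrees of freedom). The code was tested on simulated data. Figures were drawn with matplotlib 3.10.9. Precision is limited by the number of arrays.

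The members and 20 marker lists (196 genes, 139 on the array, 129 tested) were chosen with earlier results of these data known. In a list described, up to 3 genes with the smallest p are named, each by its brightest probe set, besides CLEC14A, CD93, CAV2 and PECAM1. VEGFD is also named for paced septum against paced free wall, where its groups did not overlap. As a check of pairing, deviations of same-numbered arrays from the group means correlated in control pigs (r of 0.32, 0.25 and 0.24) but not in paced pigs (0.089, -0.17 and -0.18), and the pairing comes from the array numbers only. Alternatives were other filters, variance models, array weights, scaling, a replicate block, smaller fits and leaving out each array. Leaving out both control arrays numbered 1, and all counts without an array for the endothelial lists, were chosen after seeing the data.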

Additional observations from a re-analysis of the deposited data

How the results depend on the processing

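No member was called in any comparison under any of the 19 or 20 alternatives of each (0 throughout), while the count over all probe sets ran from 0 to 2 for pacing in the free wall, 1 to 4 for pacing in septum, 0 to 3 for averaged regions and 0 to 7 for the regions in paced pigs. With the replicate block 0 members were called in each comparison, and it changed no other call. Of 584 recomputed member values 30 changed sign and 554 did not, and of 986 values of other named genes 11 changed sign. With array weights ESAM stood at 0.059 and CD93 at -0.088 for pacing in the free wall, and PECAM1 at -0.010 and CD93 at 0.058 for septum against free wall in paced pigs. Without both control arrays numbered 1, MMRN2 stood at -0.085 for pacing in the free wall and -0.017 in septum, and with averaged regions CAV1 stood at -0.018 and MMRN2 at -0.051.

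Leaving out single arrays turned these differences. For pacing in the free wall the ranges were -0.16 to 0.14 for ESAM, -0.26 to 0.088 for CAV1, -0.085 to 0.435 for MMRN2, -0.12 to 0.20 for its second probe set, -0.35 to 0.085 for PECAM1, -0.23 to 0.072 for CAV2, -0.27 to 0.097 for CLEC14A and -0.20 to 0.56 for CD93. MMRN2 ranged from -0.017 to 0.47 for pacing in septum and from -0.19 to 0.375 for the difference of effects. In control pigs the regional ranges were -0.16 to 0.11 for CAV1 and -0.022 to 0.54 for MMRN2. In paced pigs they were -0.12 to 0.31 for PECAM1, -0.56 to 0.20 for CD93 and -0.063 to 0.58 for FLT1. With averaged regions they were -0.015 to 0.23 for ESAM, -0.022 to 0.205 for CAV1 and -0.21 to 0.042 for the second MMRN2 probe set. For pacing in the free wall the upper ends of CAV1, PECAM1, CAV2 and CLEC14A and the lower end of CD93 are those without free wall paced array 2, as are the lower ends of PECAM1 and FLT1 in paced pigs. In control pigs both lower ends are those without free wall control array 1. The cause was not tested. Where a group was left with 2 arrays, their spread was taken from all groups.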
